A study of Mus musculus with 2 samples.

Results

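Among 82710 well-covered 500-bp stretches of the mouse autosomes, 2012 (2.43%) were lower by 20 percentage points or more in hippocampal DNA of arsenic-exposed offspring than in control DNA. These 2012 stretches, called loss bins here, were chosen by that difference. Each held at least 8 CpG cytosines read at least 10 times in both libraries, with a mean coverage of at least 20 reads in each. A bin's level was its summed methylated calls over its summed coverage, and differences subtract the control level from the ATO level, in points. The series compared 1 library from an untreated C57BL/6 mouse hippocampus with 1 library from C57BL/6 offspring given 5000 ppb arsenic trioxide (ATO). The exposure was through drinking water, from before mating through lactation and then directly after weaning. DNA was captured with a mouse SureSelect Methyl-Seq panel and bisulfite treated, which leaves methylated cytosine as C. The labels do not give age or sex, nor whether a library is 1 animal or a pool. With 1 library per group there was no replicate check and no test of the exposure, and since the difference chose the bins, their levels are given as a description. In the other direction 909 bins (1.1%) were higher by 20 points or more and are called gain bins.

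In mammals a methyl group is placed on the cytosine of most CpG pairs, and maintenance at replication copies it to the new strand. CpG islands, the CpG-dense DNA at many gene starts, usually stay unmethylated, whereas enhancers and other CpG-poor regulatory DNA often show intermediate levels that differ between cell types. Inorganic arsenic is detoxified by methylation from S-adenosylmethionine, the methyl donor that the DNA methyltransferases also use. A level measured in tissue DNA averages over all cells, so a partial loss in every cell and a full loss in a share of cells cannot be told apart, nor can a different mix of cell types.

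Gene starts could be placed on the files' mm9 positions only through the sequences themselves. RefSeq promoter windows (250 bases before to 50 after a gene start, GRCm38.p6 letters) were searched by the spacing of their CpGs, and 12503 windows of 10894 genes found a single place on the chromosomes other than 18. Of the loss bins on these chromosomes, 59 of 1938 (3.04%) overlapped a placed window, against 4.11% of partly methylated bins (mean of both libraries between 20 and 80%), 1.47% of gain bins and 14.5% of all eligible bins. The 62 genes at these bins comprised 30 protein-coding and 32 long noncoding RNA genes. They were 0.340% of the placed protein-coding genes and 1.54% of the placed noncoding ones, against 0.569% of all placed genes. Windows in eligible or partly methylated bins were not counted by kind of gene. The 2 shares therefore do not show that noncoding starts are more prone to loss. The letters below are the 250 bases before the start, in the gene's direction, for the bins with the largest losses among those that held a nearly whole window (at most 25 bases outside). They were chosen after their values were seen, and capitals mark the CpG pairs.
Gm15889, chr8:96901525-96901774, plus strand: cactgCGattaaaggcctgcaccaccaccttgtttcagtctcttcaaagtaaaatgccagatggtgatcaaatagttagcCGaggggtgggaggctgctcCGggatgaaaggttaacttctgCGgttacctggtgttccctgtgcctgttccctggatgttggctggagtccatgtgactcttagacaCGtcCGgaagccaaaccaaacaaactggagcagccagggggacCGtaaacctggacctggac
Gckr, chr5:31599686-31599935, plus strand: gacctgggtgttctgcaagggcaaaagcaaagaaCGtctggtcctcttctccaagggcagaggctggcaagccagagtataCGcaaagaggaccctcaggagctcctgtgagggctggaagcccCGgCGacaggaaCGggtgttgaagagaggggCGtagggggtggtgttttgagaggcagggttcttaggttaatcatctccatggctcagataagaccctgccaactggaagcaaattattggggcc
Lhx3, chr2:26063770-26064019, minus strand: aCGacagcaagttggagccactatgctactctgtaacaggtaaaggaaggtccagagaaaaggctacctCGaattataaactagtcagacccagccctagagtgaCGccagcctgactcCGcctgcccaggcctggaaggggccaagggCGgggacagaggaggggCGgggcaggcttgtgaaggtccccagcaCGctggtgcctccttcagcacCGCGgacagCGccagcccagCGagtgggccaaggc
Positions are mm9. The first is the start of a noncoding RNA, Gckr encodes the glucokinase regulatory protein of liver, and Lhx3 encodes a LIM-homeodomain factor of pituitary and motor neuron development.

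The bin at the Gm15889 start read 66.5% (exact binomial 95% interval 53.7 to 79.0) in control DNA and 28.5% (17.7 to 40.1) in ATO DNA, a difference of -38.0 points with all 8 cytosines lower. Its 5 measured cytosines in the printed stretch, at positions -150, -128, -62, -58 and -19 from the start, stood at 66.7, 83.9, 58.2, 79.4 and 79.5% in control DNA and at 42.1, 51.6, 25, 39.2 and 37.0% in ATO DNA. All 5 were thus lower, the 3 nearest to the start by the most. The bin at Gckr read 84.2% (69.9 to 93.4) and 51.2% (33.4 to 66.6). Of its 6 cytosines in the printed stretch 5 were lower, while the one at position -169 read 88.9 and 90.9%. At Lhx3 the bin read 62.7% (47.8 to 77.6) and 32.9% (22.0 to 46.3), with all 14 cytosines lower. Within the printed stretch its loss lay near the start. The 5 cytosines from position -56 on had differences from -35.9 to -55 points. Those at positions -131, -145 and -181 differed by -12.5, -25.8 and -5.56 points, and the one farthest from the start, outside the bin, by 4.8 points.

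The 59 bins only had to overlap a placed window, so a bin's value need not be that of the start itself. Other protein-coding genes at these bins included Tjp3, a tight junction scaffold (62.3% and 27.5% in control and ATO). The bin at Col18a1, a basement membrane collagen, read 84.8% and 53.7%, with all 17 cytosines lower. The bin at Ccdc30 read 33.0% and 8.35%, with all 26 cytosines lower. The bins at windows of Rara, the retinoic acid receptor alpha, and Abl1, a tyrosine kinase, differed by -21.2 and -20.3 points. They lay 500 and 70500 bp from the nearest CpG-dense unmethylated bin, as defined below. A gene can have more than 1 placed window, and which of its starts is used in hippocampus was not examined. The bin at both Plagl1, an imprinted zinc finger gene, and the noncoding RNA Hymai had 61.7% and 37.6%. The largest loss among the 59 bins, at a window of the noncoding RNA D030045P18Rik, went from 67.4% in control DNA to 21.3% in ATO DNA.

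Loss bins started from intermediate to high methylation and ended at intermediate levels. In the control their median level was 67.3% (quartiles 55.6 and 78.4%, range 25.2 to 97.5%), and in ATO DNA 39.9% (quartiles 29.2 and 50.7%, range 3.51 to 74.3%). The median difference was -24.8 points (mean -26.5, SD 5.82 between bins). Few ended near zero, with 188 bins (9.34%) under 20% and 34 (1.69%) under 10% in ATO DNA. In 460 bins (22.9%) the ATO level was at or below the control level divided by 2. The 2 bins with the highest start, on chromosome 8 at 123077001 and chromosome 14 at 61366501, read 97.5 and 96.7% in control DNA and 73.5 and 73.6% in ATO DNA. The 2 with the lowest start, on chromosome 17 at 43495001 and chromosome 1 at 107740001, read 25.2 and 25.3% in control DNA and 5.01 and 4.26% in ATO DNA. Only bins that start above 20% can be lower by 20 points, so the start levels are bounded by the rule.

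Counting error was wide beside these differences. The exact binomial 95% intervals, computed on calls divided by the largest number of cytosines in any 300-bp stretch because calls on one fragment are not independent, had a median width of 22.9 points in control DNA and 22.5 points in ATO DNA. The intervals of the 2 libraries did not overlap in 1159 loss bins (57.6%). This share follows largely from the choice of the bins by their difference, and it was not computed for other bins. The intervals cover counting error only, since reads without molecular identifiers are not independent molecules.

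**Figure D1:**
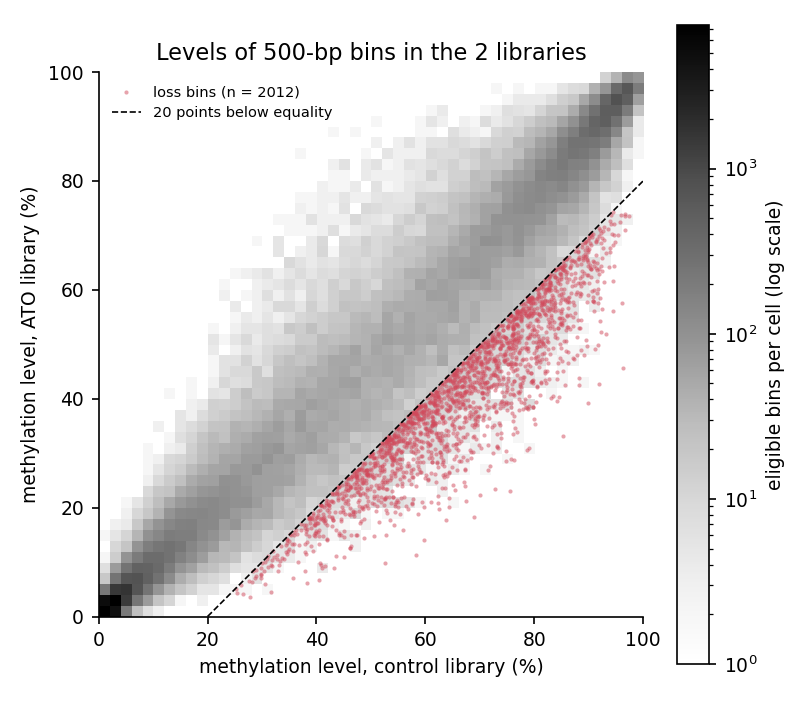
Methylation level of each eligible 500-bp bin in control DNA library (horizontal axis, %) and the ATO library (vertical axis, %). Grey shows the number of the 82710 eligible bins per 2-point cell on a log scale, red points are the 2012 loss bins below the dashed line of 20 points, and these spread from 25.2 to 97.5% in control DNA.

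Loss bins were most frequent at intermediate and moderately high control levels. Of bins starting between 60 and 70% in control DNA, 448 of 4217 (10.6%) were loss bins, as were 10.1% between 50 and 60% and 8.89% between 70 and 80%. Between 80 and 90% the share was 4.70%, at 90% and above 1.01% (86 bins) and between 20 and 30% 0.327% (15 bins). Sorting by the control level favours losses where the control is high, so bins were also sorted by the mean of both libraries. Between 40 and 60% there, 911 of 7900 bins were loss bins (11.5%) and 402 gain bins (5.09%). Losses made up 72.6% of both kinds at mean levels between 20 and 40%, 69.4% between 40 and 60% and 66.2% between 60 and 80%. Within the set the median loss by mean level was -23.8 points between 20 and 40%, -25.5 points between 40 and 60%, -25.3 points between 60 and 80% and -22.4 points between 80 and 90%. A mean level near either end of the scale bounds a loss, as does a low control level. Sorted by the control level, the median loss was -21.3 points for starts between 20 and 30% and -26.2 points for starts of 90% and above. Each of the 19 autosomes had more loss than gain bins, and the share of bins in the loss set ran from 1.64% on chromosome 7 to 2.88% on chromosome 18. The mean difference was -1.26 points (SD 7.37) over all eligible bins and -3.11 points (SD 11.9) over partly methylated bins. The part of this general difference in the excess of loss over gain bins was not tested.

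Within a loss bin nearly all cytosines were lower. Of the 21602 cytosines in these bins 20530 (95%) were lower in ATO DNA, and 65.7% were lower by 20 points or more. A high share follows largely from the choice of the bins, which used these cytosines. Every cytosine was lower in 1292 bins (64.2%), and in 1770 bins (88.0%) at most 1 was not. In 39 bins (1.94%) under 75% of the cytosines were lower. The share of bins with every cytosine lower dropped with their number, from 71.5% of bins with 8 or 9 cytosines to 37.2% of bins with 21 or more. Gain bins, with the libraries exchanged, were like this too, with every cytosine in the bin's direction in 59.1%.

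The differences of a bin's cytosines had a median SD of 13 points. Binomial counting error at the bins' levels and coverages gave a median of 9.77 points, with calls at different cytosines taken as independent. Since calls on one fragment are not independent, this value is approximate. It also took every cytosine at its bin's level, although control levels within a bin had a median SD of 14.6 points. The binomial SD may therefore be too large and the ratios below too low. The ratio of the observed to the binomial SD had a median of 1.34 and was under 1.5 in 1303 bins (64.8%). Gain bins had a median ratio of 1.47. Along the bin, the first and the last of the cytosines differed by a median of 9.11 points when the bin's cytosines were split in 2 equal sets by position. Without the cytosine whose removal shrank the loss most, 1461 bins (72.6%) still stood at -20 points or below. The size of the difference varied with a cytosine's level. Cytosines whose mean of both libraries lay between 40 and 60% differed by -30.6 points on average (SD 14.7, 7237 cytosines), those between 60 and 80% by -28.0 points, those at 80% and above by -12.7 points and those under 20% by -11.5 points. A mean near either end of the scale limits how far the libraries can differ, so the smaller values there follow in part from the sorting.

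The 3 largest losses had every cytosine lower. On chromosome 13, 99788501 to 99789000, the level was 75.5% (63.8 to 86.0) in control DNA and 23.0% (15.3 to 33.3) in ATO DNA over 8 cytosines, read 63.3 and 94.1 times on average. Its cytosines lay between 59.3 and 80.9% in control DNA and between 18.7 and 25.9% in ATO DNA, 2 ranges that did not overlap. On chromosome 17, 27552001 to 27552500, 19 cytosines gave 85.2% (68.7 to 94.0) and 33.1% (20 to 49), and their differences ran from -38.0 to -85.0 points. On chromosome 10, 61864001 to 61864500, 10 cytosines gave 69.0% (55.5 to 80.5) and 18.3% (10.6 to 28.4). There the difference grew along the bin, from -25.4 and -35.6 points at the 2 leftmost cytosines to between -52.4 and -71.6 points at the 6 rightmost. The nearest placed gene starts were those of Tnpo1, a nuclear import receptor, at 92162 bp, Gm10505 at 89860 bp and Hk1, a hexokinase, at 60832 bp. The next 7 in size, on chromosomes 3, 5, 6, 8, 10, 11 and 19, differed by -47.8 to -50.7 points. In 1 of these 7, on chromosome 6, 1 cytosine of 13 was not lower, and its difference was 10.8 points.

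Evenness varied between bins. The most even bin, on chromosome 5 at 73484001 to 73484500, had 8 differences between -22.8 and -29.1 points. Another, on chromosome 11 at 85452001 to 85452500, stood at 92.0% (86.4 to 96.9) in control DNA and 54.3% (45.7 to 63.0) in ATO DNA, with mean coverages of 112.5 and 136.3 reads, and its 8 cytosines differed by -33.5 to -40.6 points. The bin on chromosome 17 at 71242001 to 71242500 was even in another way. Its cytosines ranged from 25 to 86.2% in control DNA, yet all 8 differed by -18.9 to -26.1 points. In the least even bins the difference was limited to some of the cytosines. On chromosome 5, 130550501 to 130551000, the first 7 cytosines differed by -32.0 to -49.7 points, and of the last 4, read 10 to 18 times, 3 were higher. On chromosome 3, 101310001 to 101310500, the first 5 cytosines differed by -46.0 to -72.3 points the next 3 by -4.02, 4.35 and 15.9 points and the last by -19.1 points. On chromosome 14, 37703501 to 37704000, the strands disagreed. At the 3 leftmost CpGs read on both strands the forward cytosines differed by -64.0, -81.8 and -54.8 points, and the reverse ones by -18.9, -16.2 and -1.0 points. At the remaining CpG read on both the forward cytosine differed by 2.89 points and the reverse one by -18.7 points.

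**Figure D2:**
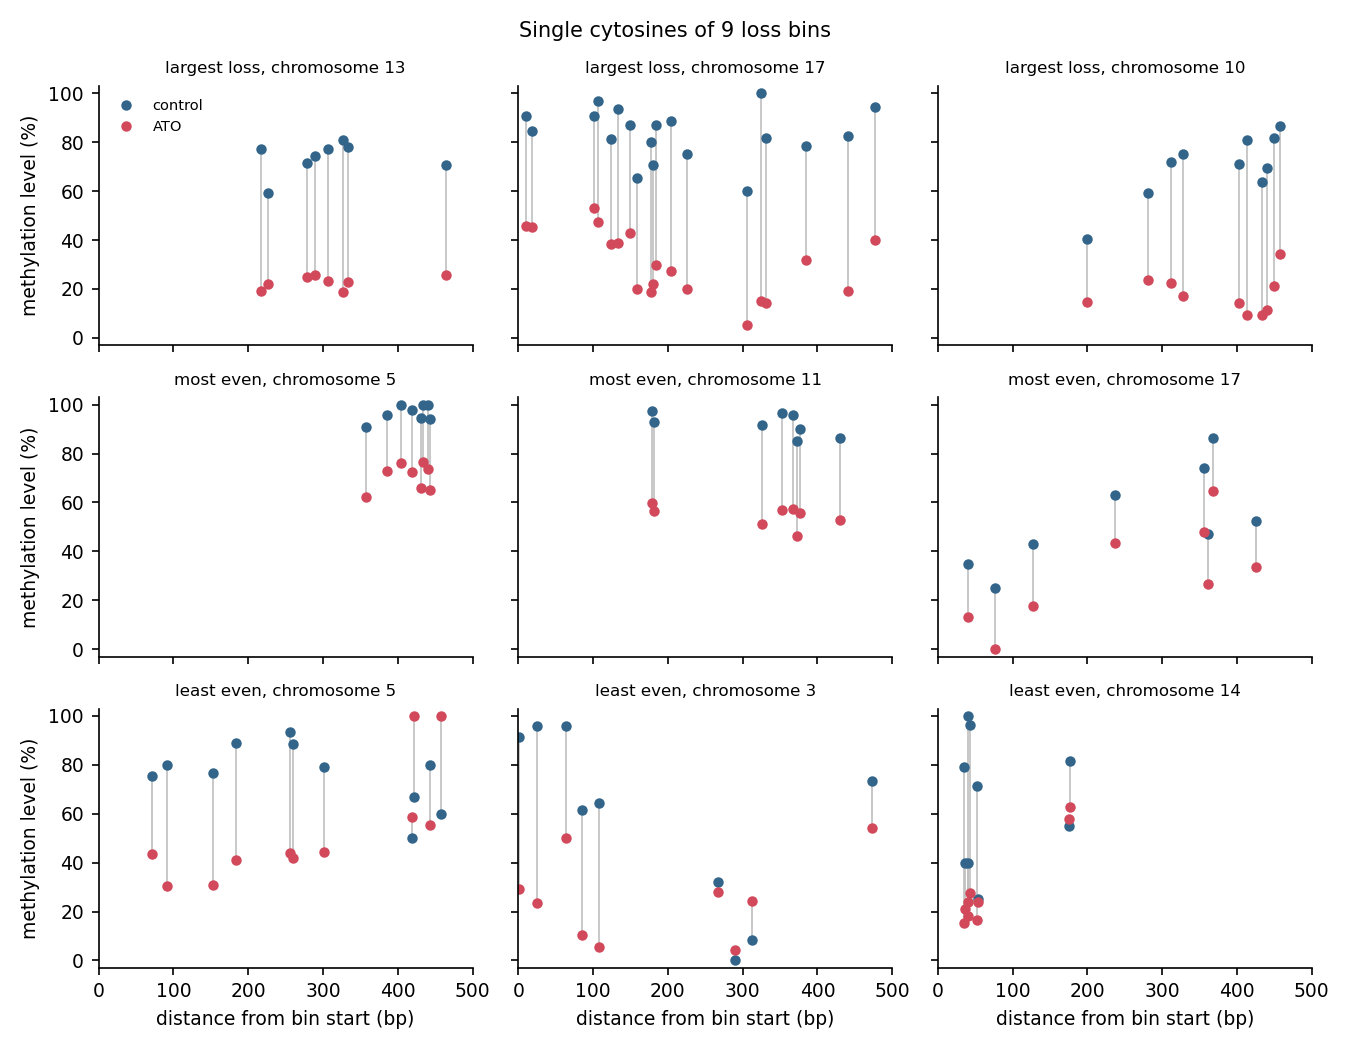
Methylation level (%) of each analysed cytosine along 9 loss bins of 500 bp (horizontal axis, distance from the bin start in bp), blue for the control and red for the ATO library, joined by a grey line. The upper row holds the largest losses, where every cytosine is lower, the middle row the most even bins and the lower row the least even ones, where some cytosines are higher.

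Cytosines that took no part in the choice were lower as well. In 672 loss bins, 1220 cytosines had under 10 reads in a library but at least 5 in both. Their mean was 60.1% in control DNA and 41.2% in ATO DNA, a difference of -18.9 points (SD 27.1), and 66.6% were lower. Such cytosines in partly methylated bins differed by -2.23 points on average. They may share fragments with the cytosines used. The capture reads mostly the reverse strand, which held 98.1% of the cytosines in loss bins. When bins were chosen on reverse-strand cytosines alone, 1969 passed, of which 1963 were loss bins on both strands together, and 28 of them also had forward-strand cytosines. Those 192 forward cytosines averaged 73.9% in control DNA and 53.0% in ATO DNA, a difference of -21.0 points (SD 20.2), beside -24.3 points on the reverse strand of the same bins. The forward mean was lower in 25 of the 28 bins. Forward cytosines in the 809 partly methylated bins chosen the same way differed by -0.19 points.

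The difference reached past the bin edges, was smaller farther out, and between 2000 and 5000 bp was still beyond that around partly methylated bins. Cytosines outside every loss bin differed by -13.7 points (SD 16.4) within 250 bp of a loss bin's edge, by -7.04 points from there to 500 bp and by -4.60 points between 500 and 1000 bp. Between 1000 and 2000 bp the mean was -2.79 points and between 2000 and 5000 bp -2.74 points. Around partly methylated bins the same distances gave -1.85, -1.09, -0.73, -0.73 and -1.12 points. Cytosines within 250 bp had 60.3% in control DNA and 46.6% in ATO DNA, and 78.8% of them were lower. Control levels were lower farther out, at 39.7% between 1000 and 2000 bp. Among flanking cytosines at 20 to 80% alone the means over the 5 distances were -18.7, -12.4, -10.8, -7.47 and -6.70 points around loss bins. Around partly methylated bins they were -3.24, -2.58, -2.27, -2.21 and -2.89 points. Gain bins had 12.2, 5.47, 2.97, 1.22 and 1.24 points over the 5 distances. Cytosines close to the edge can lie on the same fragments as those in the bin.

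**Figure D3:**
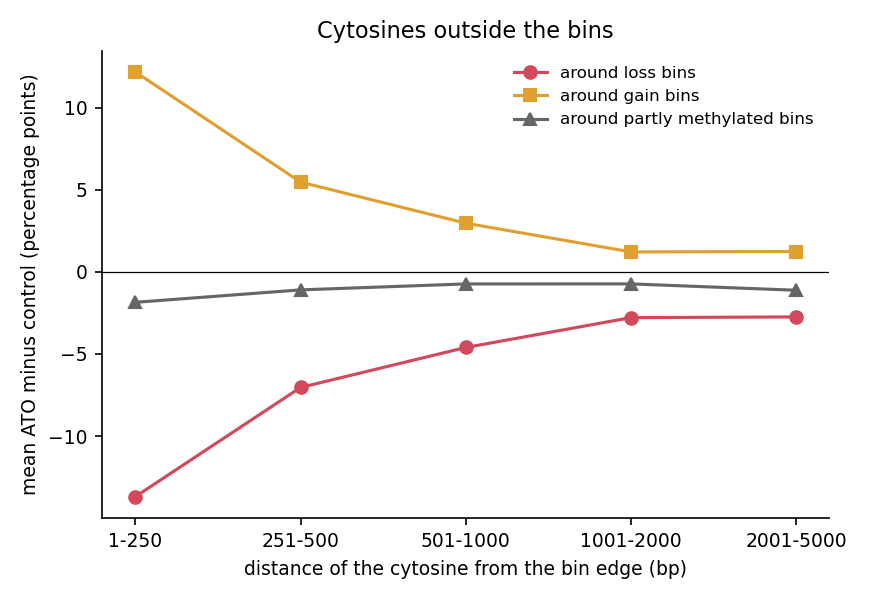
Mean ATO minus control difference (percentage points) of cytosines outside the bins, by distance from the bin edge (bp), around loss bins (red circles), gain bins (orange squares) and all partly methylated bins (grey triangles). Around loss bins the mean goes from -13.7 points within 250 bp to -2.74 points between 2000 and 5000 bp.

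Loss bins held fewer cytosines than eligible bins as a whole, all of which had at least 8 by the rule. They held a median of 10 analysed cytosines (8 to 43), against 13 in all eligible bins and 10 in both partly methylated and gain bins. Most held 8 to 12 cytosines, with 951 bins at 8 or 9 and 651 at 10 to 12. Among partly methylated bins the share in the loss set went down from 8.42% at 8 or 9 cytosines to 5.68% at 16 to 20, 3.66% at 21 to 30 and 1.29% (6 of 465) at 31 or more. The share in the gain set went down as well, from 3.83 to 0.86%, so losses stayed between 60 and 72.9% of both kinds in these classes. The SD of all differences also narrowed, from 12.5 points at 8 or 9 cytosines to 7.71 points at 31 or more. The loss bins with the most cytosines were on chromosome 5 at 137874001 to 137874500 (43 cytosines, 94.9% and 68.8%), chromosome 2 at 35346501 to 35347000 (42 cytosines, 86.3% and 53.2%) and chromosome 19 at 37761501 to 37762000 (39 cytosines, 44.7% and 24.1%).

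Most loss bins lay far from unmethylated CpG-dense DNA, defined as bins of 15 or more cytosines whose mean over both libraries was under 10% (27895 bins, the pattern of CpG islands). The median gap was 32500 bp for loss bins, 22000 bp for gain bins, 17500 bp for partly methylated bins and 1000 bp for all eligible bins. Within 2000 bp of such DNA were 204 loss bins (10.1%), 19.9% of gain bins and 24.6% of partly methylated bins. The share of partly methylated bins in the loss set went up with the gap, from 2.06% (94 of 4555) within 500 bp to 5.46% between 500 and 2000 bp, 6.10% between 2000 and 5000 bp, 8.10% between 5000 and 20000 bp, 9.37% between 20000 and 100000 bp and 10.2% (373 of 3660) beyond. The share in the gain set showed no such course, with 2.02% within 500 bp, 4.42% between 500 and 2000 bp and 3.33% beyond 100000 bp. Losses were thus 50.5% of both kinds within 500 bp and 75.4% beyond 100000 bp. The mean difference of all partly methylated bins in these classes was -0.84 and -4.00 points. For placed gene starts the loss share also rose with distance, apart from the first step. Within 500 bp of a start, 77 of 1861 partly methylated bins were in the loss set (4.14%) and 26 in the gain set (1.40%). Between 500 and 2000 bp the shares were 3.46% and 3.05%, and between 2000 and 10000 bp 5.88% and 3.55%. From there to 50000 bp they were 7.95% and 3.64%, and over 50000 bp away 9.23% and 3.57%.

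**Figure D4:**
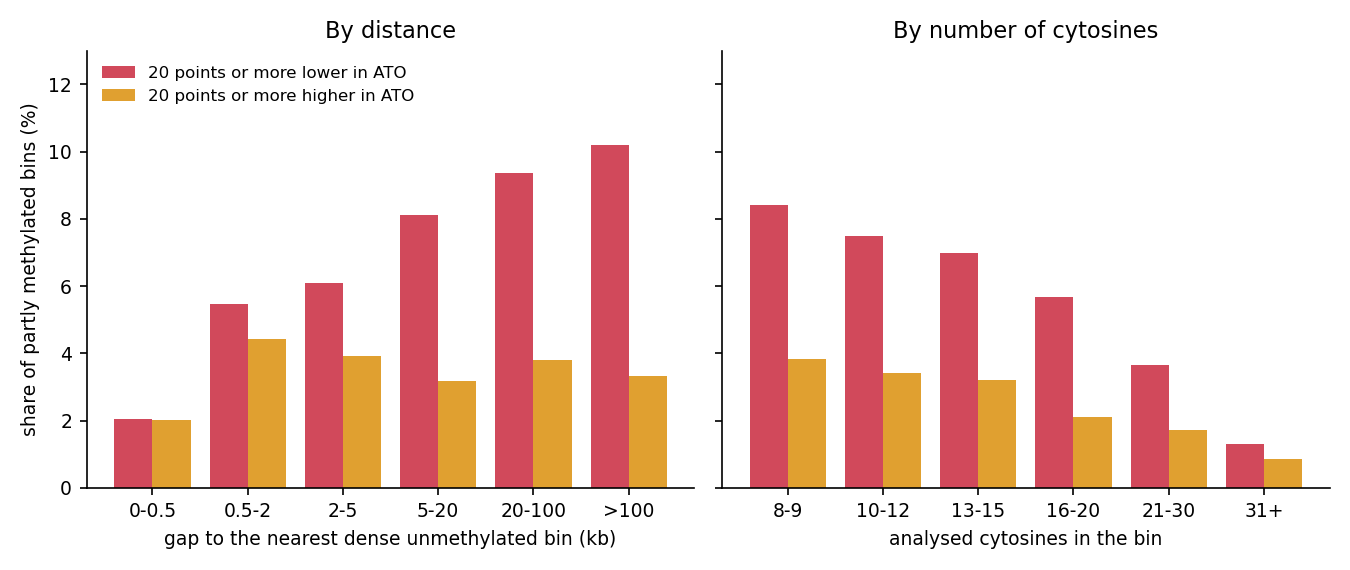
Share (%) of partly methylated bins that were 20 points or more lower (red) or higher (orange) in ATO DNA, by the gap to the nearest dense unmethylated bin (left, kb) and by the number of analysed cytosines (right). The lower share goes from 2.06% within 0.5 kb to 10.2% beyond 100 kb, while across the same gaps the higher share stays between 2.02 and 4.42%.

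Most loss bins had no other loss bin within 5000 bp, and a minority stood in small groups of 1 direction. Eligible bins nearby were few, which limits grouping. Around the 2012 loss bins, 732 eligible bins were adjacent, 835 started 1000 to 2000 bp away and 1024 started 2500 to 5000 bp away. With starts at most 5000 bp apart counted as a group, 1715 stood alone, 121 groups held 2, 14 held 3, 2 held 4 and 1 held 5. The median gap to the next loss bin was 139500 bp. Beside a loss bin, 211 of 732 adjacent eligible bins were loss bins too (28.8%) and 0 were gain bins. At starts 1000 to 2000 bp away 5.39% were loss bins, between 2000 and 5000 bp 4%, between 5000 and 20000 bp 3.48% and between 20000 and 100000 bp 2.73%, near the share of 2.43% over all eligible bins. Gain bins within 5000 bp were rare, with 6 loss bins of 2012 having one. Partly methylated neighbours alone gave 39.6% when adjacent and 13.4% at 1000 to 2000 bp, against 7.42% of all such bins. Gain bins grouped likewise, with 30.3% of their adjacent bins also in the gain set.

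The largest group lay on chromosome 15 from 25683001 to 25692500. Its 5 loss bins, of 6 eligible bins in the span, read 80.7, 50.7, 52.8, 67.3 and 50.2% in control DNA and 50.1, 27.8, 23.4, 36.4 and 25.7% in ATO DNA. Over this 9500-bp span 88 of 93 cytosines were lower, with a mean difference of -22.3 points. It lay 80553 to 89553 bp upstream of the placed start of Retreg1, which encodes a receptor for autophagy of the endoplasmic reticulum. The second, on chromosome 10 from 82480501 to 82483000, lay 32259 to 34259 bp downstream of the start of Chst11, a chondroitin sulfotransferase. Its 4 bins were all the eligible bins of the span. They read 88.6, 79.8, 72.4 and 64.0% in control DNA and 60.6, 43.4, 44.3 and 25.7% in ATO DNA, so all 4 ended below the control bins' lowest value. Here 38 of 40 cytosines were lower. One more loss bin stood 2259 bp downstream of the same start, with 69.4% and 32.5%.

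The group on chromosome 12 from 109201501 to 109205500 belonged to a wider set of loss bins downstream of the start of Bcl11b, a zinc finger transcription factor of hippocampal granule and CA1 neurons. The 4 bins of the group were all the eligible bins of its span. They read 78.9, 79.6, 81.8 and 81.9% in control DNA and 55.3, 58.7, 57.5 and 45.1% in ATO DNA, with 39 of 40 cytosines lower. With 5 further bins 3124 to 28624 bp from the start, 9 of 47 eligible bins nearest to Bcl11b and within 100000 bp were loss bins (19.1%), and 0 were gain bins. The pair nearest to the start, at 109237501 and 109238001, read 60.6 and 69.1% in control DNA and 36.6 and 41.9% in ATO DNA. All 20 cytosines of this pair were lower. The 24 other eligible bins within 50000 bp had a median difference of -1.997 points, from -19.1 to 10.7 points, and 16 of them were lower. The eligible bin 124 bp downstream of the start read 4.99 and 3.00%, and the one 377 bp upstream 2.04 and 1.90%.

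**Figure D5:**
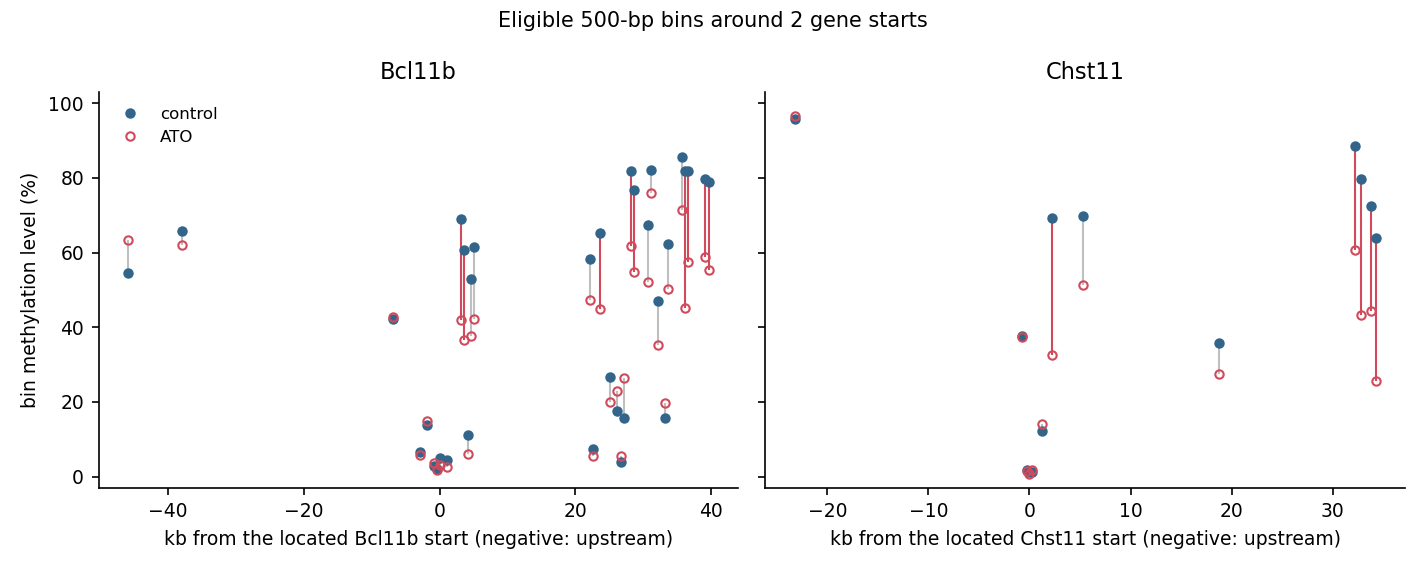
Methylation level (%) of eligible 500-bp bins within 50 kb of the placed starts of Bcl11b (left) and Chst11 (right), by distance from the start (kb, negative upstream), filled blue for the control and open red for the ATO library, with red joining lines for loss bins. Loss bins stand 3124 to 39624 bp downstream of the Bcl11b start and 2259 to 34259 bp downstream of the Chst11 start, apart from the unmethylated bins at the starts.

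Counted by the nearest placed start within 100000 bp, 1414 loss bins fell to 1113 genes, 896 of them with 1 bin, and 16 genes had 4 or more. Of these 1414, 809 (57.2%) lay downstream of the start, and so possibly within the gene, 562 (39.7%) upstream and 43 (3.04%) at it. The shares were 55.6, 41.3 and 3.05% for partly methylated bins and 50.7, 36.9 and 12.5% for all eligible bins. Besides Bcl11b, 9 loss bins were nearest to the noncoding RNA Gm51556, of 30 eligible ones, with a median of 53.6% in control DNA and 30.1% in ATO DNA. Genes nearest to 5 loss bins were Cdc42ep4, an effector of the GTPase Cdc42 (of 19 eligible bins), and Cox7a2l, a factor of respiratory supercomplexes (of 10). So were Xpnpep1, an aminopeptidase (of 22), and Gm33447 (of 17), beside Chst11 (of 17) and Retreg1 (of 30). The share over all eligible bins was 2.43%. Downstream of the start lay 5 of these loss bins at Chst11, 4 at Gm33447, 2 at Cdc42ep4 and 0 at Cox7a2l, Xpnpep1 and Retreg1. Retreg1 was also nearest to 1 gain bin. Zfp423, a zinc finger regulator of cerebellar development, had 4 of 15, and Sulf2, an extracellular heparan sulfate 6-O-endosulfatase, 4 of 23. These genes were picked by their counts, and unplaced genes may lie closer.

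The gene lists were counted over eligible bins within 5000 bp of a placed start. Excitatory and granule neuron genes (6 of 12 placed) had 4 loss bins and 1 gain bin of 44, with a median difference over their bins of -0.19 points, against -0.30 points over all eligible bins. The 4 were the pair at Bcl11b and a pair upstream of Neurod1, a helix-loop-helix factor of neuronal differentiation. At Neurod1 the bins on chromosome 2 at 79299001 and 79299501, 2208 and 2708 bp before the start, read 39.7 and 35.7% in control DNA and 14.7 and 7.06% in ATO DNA, with 38 of 40 cytosines lower. The bins over and just before the Neurod1 start were below 4% in both libraries. The other lists held 0 loss bins, out of 58 bins for interneuron, 33 for activity-induced (2 gain bins), 30 for arsenic and oxidative stress (1 gain bin), 23 for methylation machinery, 17 for synapse, 15 for oligodendrocyte, 12 for stress axis, 11 for endothelium and blood and 2 for astrocyte genes. No microglia gene was placed. Median differences of these lists ran from -1.15 to 0.53 points, apart from -8.47 points over the 2 astrocyte bins. With 2.43% of all eligible bins in the loss set, lists of this size hold too few bins for a count of 0 to be read.

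Depth was slightly above that of all eligible bins and slightly below that of partly methylated and gain bins. Mean coverage of loss bins had a median of 53.3 reads in control DNA and 59.8 in ATO DNA, against 50.1 and 54.7 over all eligible bins. In the same order it was 56.7 and 61.9 reads in partly methylated bins and 59.3 and 62.25 reads in gain bins. The ATO to control ratio of coverage had a median of 1.12 in loss bins, 1.07 in gain bins and 1.09 in partly methylated bins. Among partly methylated bins with a lower mean coverage of 20 to 40 reads 8.38% were loss and 2.97% gain bins, and with 60 reads or more 6.59% and 3.65%. Losses were thus 73.8% and 64.3% of both kinds, and the part of depth in this was not tested. The loss bins of greatest coverage lay in the first 10 Mb of chromosome 14, at 6094501 (423.6 and 412.6 reads, 64.8% and 40.3%), 6171001 (334.9 and 365.6 reads, 77.8% and 43.0%) and 3048001 (330.3 and 364.8 reads, 70.7% and 40.1%). Whether reads from near-identical copies were counted together there was not tested, so these positions are uncertain. Of 6 loss bins with 200 reads or more in both libraries 5 lay there, against 52 of 526 eligible bins of that depth. At any depth 10 of the 2012 loss bins lay there, against 204 of the 82710 eligible bins. At the threshold, the last 3 bins inside differed by -20.0005, -20.004 and -20.01 points, and the first 3 outside by -19.9994, -19.992 and -19.99 points. Their control levels were 32.0, 87.8 and 52.8% inside and 84.0, 43.7 and 86.5% outside.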

How the data were processed

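CpG methylation was measured in 1 control and 1 ATO library. Per the submitters' processing notes, bcl2fastq, Bismark 0.19.0 and Bowtie2 were used and the build is mm9; the sources used here name no trimming, duplicate removal or filters. Per the file headers, coverage is an unnormalized read count per cytosine, and the deposited C and T values are each a percent of that coverage. Methylated calls were recovered as coverage times percent C (100% whole within 0.005 points). Calls summed to 135987272 in control and 147924810 in ATO DNA. Chromosomes 1 to 19 were used, with 2271297 cytosines at 10 or more reads in both libraries (median coverage 41 and 45). Scripts in Python 3.11.15 (pandas 2.3.3, scipy 1.17.1) were tested on simulated data.

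No mm9 annotation was used. Promoters with at least 5 CpGs were placed where 80% of their CpGs matched listed positions with at most 1 extra CpG and no equal second place. Of 12566 placed windows, 99.5% were kept because a neighbour had an offset from the reference build alike within 1000 bp. This search, and counting the gene lists at placed starts, were added after seeing the data, and chromosome 18 was not searched.

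The members, lists and rules were chosen with earlier results of these data known. Named bins were the 10 largest losses, the extremes of cytosine number, coverage, control level and SD of cytosine differences, the 3 groups with the most loss bins and the 3 bins on each side of the threshold; gene starts and genes by count were named after seeing values. No test was run, since 1 library per group allows none. Alternatives covered coverage, bin width and position, cytosine number, level, threshold and strand.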

Additional observations from a re-analysis of the deposited data

How the results depend on the processing

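All alternatives were planned apart from the placement of promoters. Losses were 65.2 to 70.1% of both kinds of bin in the settings tried, against 68.9% as reported. Of 70 values under alternatives 53 stayed within the limits set (1.5 times for counts and flank means, the 95% interval otherwise), 17 moved and 0 reversed; 10 of the 53 are the median share of lower cytosines, which sits at its ceiling and shows nothing about stability. With at least 12 cytosines per bin there were 568 loss and 248 gain bins, and at 30 points 473 and 253. The median control level of 67.3% was 68.7% with bins shifted by 250 bp, 68.6% with 1000-bp bins, 64.7% with at least 12 cytosines and 72.9% at 30 points. The share of loss bins within 2000 bp of dense unmethylated DNA, 10.1%, was 8.76% at a coverage minimum of 20 and 6.98% at 30 points. The share with another loss bin within 5000 bp, 14.8%, was 13.2% both at a coverage minimum of 20 and at a mean coverage of 40, 11.6% with 1000-bp bins, 9.33% with at least 12 cytosines and 11.2% at 30 points. With cytosines outside every eligible bin alone, the flank differences of -4.60 and -2.79 points between 500 and 1000 and between 1000 and 2000 bp were -6.95 and -4.997 points. Stricter settings leave fewer bins by construction; the cause of the other changes was not tested. No paired analysis was possible because each group has 1 library. Depth gave the intervals stated in the report, and no replicate gave the spread between animals.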
